A study of Homo sapiens with 6 samples.

Results

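The PNMA family was followed in 6 RNA sequencing libraries of Daoy cells, an established line from a human cerebellar medulloblastoma. The 8 genes PNMA1, PNMA2, PNMA3, PNMA5, PNMA6A, PNMA8A, PNMA8B and MOAP1 were taken by symbol from 60554 gene identifiers, and all 8 passed the filter on low counts that left 18683 genes. In 3 libraries (WT) the cells overexpressed wild-type ZBTB7B, and in 3 (ZFmut) they overexpressed ZBTB7B with the substitution R363L in the zinc-finger domain. All cells were exposed to lentivirus for 72 hr at an MOI (infectious particles per cell) of 15, the transgene came on top of the cell's own ZBTB7B, and no library without a transgene was analysed here. The design sets this transcription factor with an intact zinc-finger domain against the substituted form. ZBTB7B reads were also 1.57-fold higher in WT than in ZFmut. Effects of the substitution and of the ZBTB7B level therefore cannot be told apart here. The family was chosen by its measured differences in reads between WT and ZFmut, so its values below are a description of that difference and are not independent evidence for it. In bulk RNA, fewer expressing cells and less RNA per cell cannot be told apart.

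PNMA genes descend from the gag gene, the capsid gene, of an ancient retrotransposon that was tamed in mammals. The proteins are best known as onconeural antigens: PNMA1 and PNMA2, the Ma1 and Ma2 antigens, are made in neurons, and patients whose tumours express them can form antibodies that accompany paraneoplastic encephalitis. PNMA2 can assemble into capsid-like particles. MOAP1 is the member with a role in cell death, since it binds BAX and the tumour suppressor RASSF1A.

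With wild-type ZBTB7B, 5 of the 8 genes were lower, 0 were higher and 3 did not pass edgeR's quasi-likelihood test at an adjusted p of 0.05. Over all tested genes 17.2% were lower and 18.4% higher. PNMA3 was 2.54-fold lower, PNMA8A 1.83-fold lower and PNMA6A 1.64-fold lower, while PNMA1 and PNMA2 were lower by 1.16-fold and 1.14-fold. MOAP1, PNMA5 and PNMA8B did not pass. The members ran from a log2 difference (WT minus ZFmut) of -1.35 to 0.05 with a median of -0.46, beside a median of 0.0041 over all tested genes. The count of 0 higher members was the same at an unadjusted p under 0.05, and in DESeq2 and limma-voom. In 6 of the 8 genes every WT library lay below every ZFmut library, a pattern found in 22.8% of all tested genes. The count of lower members fell to 3 when WT replicate 1 or 3 or ZFmut replicate 2 was left out.

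**Figure D1:**
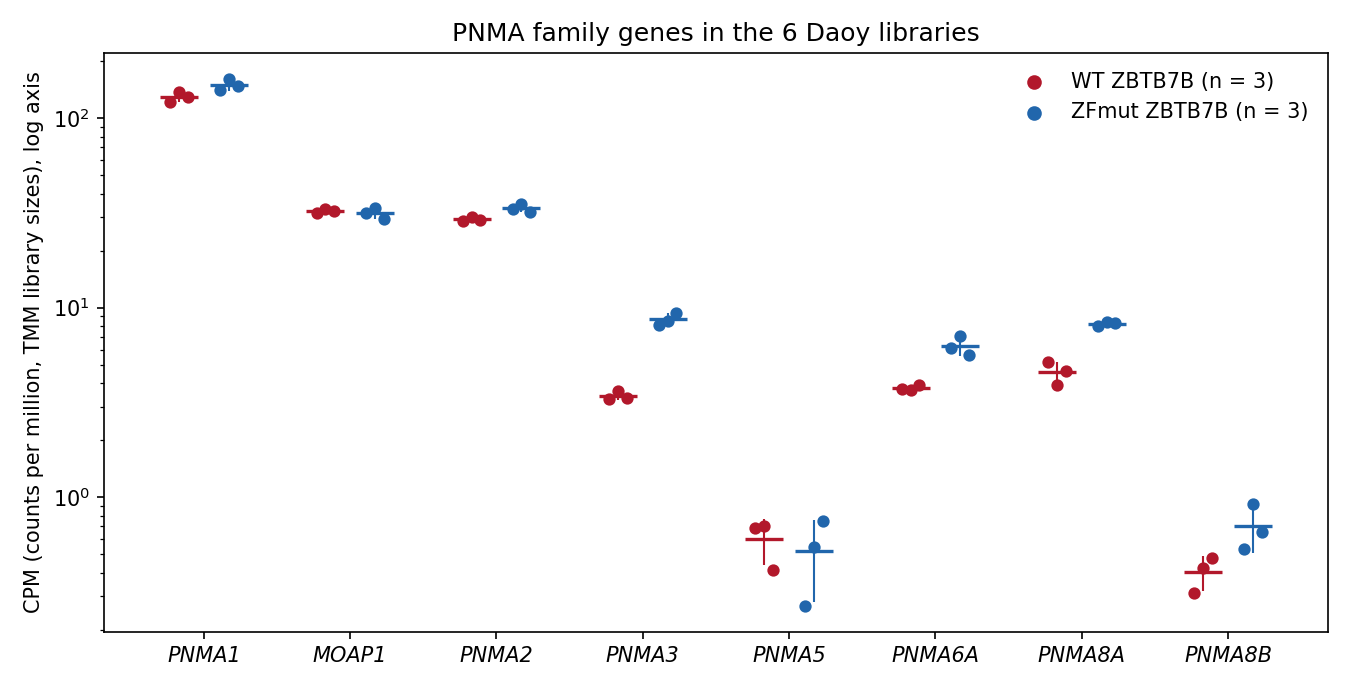
CPM of the 8 genes (log axis) in each library, WT in red and ZFmut in blue, with the mean (horizontal line) and SD (vertical line) of 3 libraries. The groups stand clearly apart for PNMA3, PNMA6A and PNMA8A and overlap for MOAP1 and PNMA5.

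PNMA1 was the dominant family transcript. Per kilobase of annotated exon it reached 49.9 ± 3.15 CPM (counts scaled to normalised library sizes, mean ± SD, n = 3) in WT and 57.7 ± 3.83 CPM in ZFmut. MOAP1 came next at 12.8 ± 0.305 and 12.4 ± 0.774 CPM per kb, and PNMA2 followed at 5.25 ± 0.152 and 6.01 ± 0.276 CPM per kb. These 3 levels did not overlap with each other in any library. Below them, PNMA6A, PNMA8A and PNMA3 stood at 1.71 ± 0.0479, 1.23 ± 0.166 and 0.914 ± 0.0497 CPM per kb in WT. In ZFmut the same 3 genes stood at 2.84 ± 0.324, 2.23 ± 0.0488 and 2.32 ± 0.175 CPM per kb, and PNMA3 and PNMA8A overlapped there. PNMA5 and PNMA8B were close to the limit of detection, between 0.0778 and 0.217 and between 0.0565 and 0.167 CPM per kb over the 6 libraries, and their ranges overlapped. Exon length was not reduced for sequence shared with other genes, which held 51.0% of the 50-base stretches in PNMA6A and 35.6% in PNMA8B. Reads there may go uncounted, so the levels of PNMA6A and PNMA8B may be too low. Their ranks and the shares per kilobase carry the same limit.

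As a share of the summed level per kilobase of the 8 genes, PNMA1 kept 69.2 ± 1.03% in WT and 68.9 ± 0.832% in ZFmut. The MOAP1 share was 17.7 ± 0.441% in WT against 14.8 ± 0.662% in ZFmut, with no overlap between the groups. MOAP1 itself overlapped between the groups, at 32.4 ± 0.774 CPM in WT and 31.4 ± 1.96 CPM in ZFmut. Its lower share in ZFmut thus goes with the higher level of the other genes, mainly PNMA1. PNMA3 made up 1.27 ± 0.0312% against 2.77 ± 0.266%. The summed CPM of the family was 204 ± 9.36 in WT and 239 ± 13.5 in ZFmut, with PNMA1 reads making up 63.4 ± 1.10% and 62.6 ± 0.868% of it.

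The antigens Ma1 and Ma2 showed small differences. PNMA1 (ENSG00000176903.4, GRCh38 chromosome 14, 73711783 to 73714372, minus strand) is a single-exon gene. It stood at 121, 137 and 129 CPM in WT replicates 1 to 3 and at 141, 160 and 148 CPM in ZFmut replicates 1 to 3. The groups did not overlap, but the gap between WT replicate 2 and ZFmut replicate 1 was small beside the spread within each group. The log2 difference was -0.21 ± 0.06 (SE of the edgeR fit). Leaving out WT replicate 1 (-0.17) or 3 (-0.21) or ZFmut replicate 2 (-0.16) ended its call.

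PNMA2 (ENSG00000240694.8, chromosome 8, 26504686 to 26514092, minus strand) stood at 28.6, 30.2 and 29.1 CPM in WT and at 33.3, 35.1 and 32.1 CPM in ZFmut. All WT libraries were below all ZFmut libraries, with a log2 difference of -0.19 ± 0.06. The call did not hold when any 1 WT library (-0.21 to -0.18) or ZFmut replicate 2 (-0.16) was left out, nor when the libraries were thinned to equal depth (-0.15). PNMA2 and PNMA1 kept nearly the same ratio of reads in both groups, 0.227 ± 0.00817 in WT and 0.224 ± 0.0107 in ZFmut. At its ends PNMA2 overlaps BNIP3L and DPYSL2 on the other strand, over 7.19% of its exonic sequence in all.

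MOAP1 (ENSG00000165943.4, chromosome 14, 93182196 to 93184928, minus strand), the modulator of apoptosis, is the member closest to PNMA1 in sequence. Its levels were 31.7, 33.2 and 32.3 CPM in WT and 31.4, 33.4 and 29.4 CPM in ZFmut. The groups overlapped, and the log2 difference was 0.05 ± 0.06. The ratio of MOAP1 to PNMA1 reads was 0.251 ± 0.0100 in WT and 0.210 ± 0.0119 in ZFmut, and the lowest WT value, 0.242, lay above the highest ZFmut value, 0.223. Since MOAP1 overlapped, this ratio mainly restates the small PNMA1 difference. The coding sequences of the 2 genes are 65.3% identical over a global nucleotide alignment, the highest of the 28 pairs of members, whose identities ran from 36.7% with a median of 49.6%.

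PNMA3 (ENSG00000183837.9, chromosome X, 153056409 to 153060467, plus strand), the Ma3 antigen gene, whose messenger RNA carries a signal for programmed ribosomal frameshifting, had the largest difference in the family. It was read 96, 207 and 105 times in WT replicates 1 to 3 and 182, 204 and 958 times in ZFmut replicates 1 to 3. On the normalised scale this came to 3.32, 3.64 and 3.32 CPM against 8.12, 8.51 and 9.40 CPM. The highest WT library was below the lowest ZFmut library by more than the whole range within either group. The log2 difference was -1.35 ± 0.11, and it ran from -1.40 to -1.21 over 17 alternative analyses, all of which kept the call.

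PNMA6A (ENSG00000235961.5, chromosome X, 153072482 to 153075018, plus strand) lies 12015 bases downstream of PNMA3 on the same strand. Its levels were 3.73, 3.70 and 3.89 CPM in WT and 6.11, 7.05 and 5.64 CPM in ZFmut. The WT libraries lay close together and below every ZFmut library, and the log2 difference was -0.71 ± 0.12, or -0.57 after trends with GC content and exon length were removed from each library (the GC and length correction below). The 2 neighbours did not change in proportion: the ratio of PNMA3 to PNMA6A reads was 0.889, 0.986 and 0.854 in WT and 1.33, 1.21 and 1.67 in ZFmut. Of the stretches of 50 bases in PNMA6A transcripts, 51.0% also occur in the adjacent pseudogene PNMA6B, which had 0 reads in every library. Reads that fit several places were not counted, so the PNMA6A value rests on the rest of the transcript.

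The start regions of PNMA3 and PNMA6A are shown because both genes were lower with WT and their sequences share runs of identical letters (RefSeq, GRCh38.p14, 5′ to 3′ on the plus strand, cut before the first annotated transcript base). Capitals mark 1 of 2 runs of 24 bases common to both, with the palindrome TGACGTCA, the cyclic AMP response element, inside it.
PNMA3, chrX:153056220-153056408: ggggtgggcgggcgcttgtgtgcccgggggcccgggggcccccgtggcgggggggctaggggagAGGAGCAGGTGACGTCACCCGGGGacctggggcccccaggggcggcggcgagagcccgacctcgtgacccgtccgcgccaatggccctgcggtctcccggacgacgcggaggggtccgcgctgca
PNMA6A, chrX:153072204-153072453: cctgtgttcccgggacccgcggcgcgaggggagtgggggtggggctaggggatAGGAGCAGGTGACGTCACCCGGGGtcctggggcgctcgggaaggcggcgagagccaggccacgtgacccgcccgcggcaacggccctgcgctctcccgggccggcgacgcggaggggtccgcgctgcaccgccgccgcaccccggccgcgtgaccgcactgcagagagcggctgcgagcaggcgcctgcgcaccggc
The marked run was found in no other promoter among 34796 distinct windows of 300 bases (250 before and 50 after a RefSeq start). The other run of 24 bases, left in lower case, ends the printed PNMA3 sequence and is not part of the marked one. In the full windows it extends to 34 bases, from -85 to -52 of the RefSeq start of PNMA3, the longest run shared by the pair, against 8 to 15 bases for the other 14 pairs of members with a window.

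TGACGTCA, searched after the sequences were seen, was present in the windows of PNMA3, PNMA6A and MOAP1, 3 of the 6 members in the table, and in 1.84% of all windows. It was picked from the marked run that PNMA3 and PNMA6A share, so these are not separate observations. The share among members is therefore no measure of enrichment. The members with this palindrome thus included PNMA3 and PNMA6A, which passed the threshold, and MOAP1, which did not. The letters GACCC and GACCACC, which occur in recognition sequences described for ZBTB7 proteins, were searched on both strands. GACCC stood in the windows of PNMA3, PNMA6A, PNMA8A and PNMA8B and in 47.5% of all windows. GACCACC stood in 1 window of PNMA5, but not in the other windows of that gene, and in 2.98% of all windows. The windows of PNMA3, PNMA6A and PNMA8A held 41, 43 and 35 CpG dinucleotides, beside a median of 14 over all windows. Among the members that did not pass, the window of MOAP1 held 43, that of PNMA8B 27 and those of PNMA5 between 4 and 23.

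PNMA5 (ENSG00000198883.11, chromosome X, 152988824 to 152994127, minus strand) is the next family gene on the other side of PNMA3, at a distance of 62282 bases. It is 61.0% identical to PNMA3 in its coding sequence. Reads were few, 20, 40 and 13 in WT and 6, 13 and 76 in ZFmut. At 0.691, 0.704 and 0.411 CPM against 0.268, 0.542 and 0.746 CPM the groups overlapped, and the log2 difference was 0.03 ± 0.33. With so wide a standard error, a change of the size seen in PNMA6A could miss the threshold. Without ZFmut replicate 3 the PNMA5 value was 0.58 and did not pass either.

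PNMA8A (ENSG00000182013.17, chromosome 19, 46466491 to 46471563, minus strand), known earlier as PNMAL1, stood at 5.15, 3.92 and 4.62 CPM in WT and at 8.03, 8.39 and 8.26 CPM in ZFmut. The ZFmut libraries were tightly grouped and all above the WT libraries, which varied more. The log2 difference was -0.87 ± 0.11 and kept its call in all 17 alternatives, from -0.97 to -0.75.

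PNMA8B (ENSG00000204851.6, chromosome 19, 46486906 to 46496498, minus strand) lies 15343 bases upstream of PNMA8A. It was read 9, 24 and 15 times in WT and 12, 22 and 67 times in ZFmut, or 0.311, 0.422 and 0.475 CPM against 0.535, 0.918 and 0.658 CPM. The groups did not overlap, but the log2 difference of -0.76 ± 0.29 missed the threshold. It passed without ZFmut replicate 1 (-0.86) and with the replicate number as a block (-0.79). Exons annotated on the opposite strand cover 36.2% of its exonic sequence. An antisense gene that shares sequence with PNMA8B was listed with 0 reads in every library. Without strand, reads in such an overlap cannot be assigned to 1 gene and may go uncounted. The 0 reads therefore do not show that the antisense gene was silent.

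**Figure D2:**
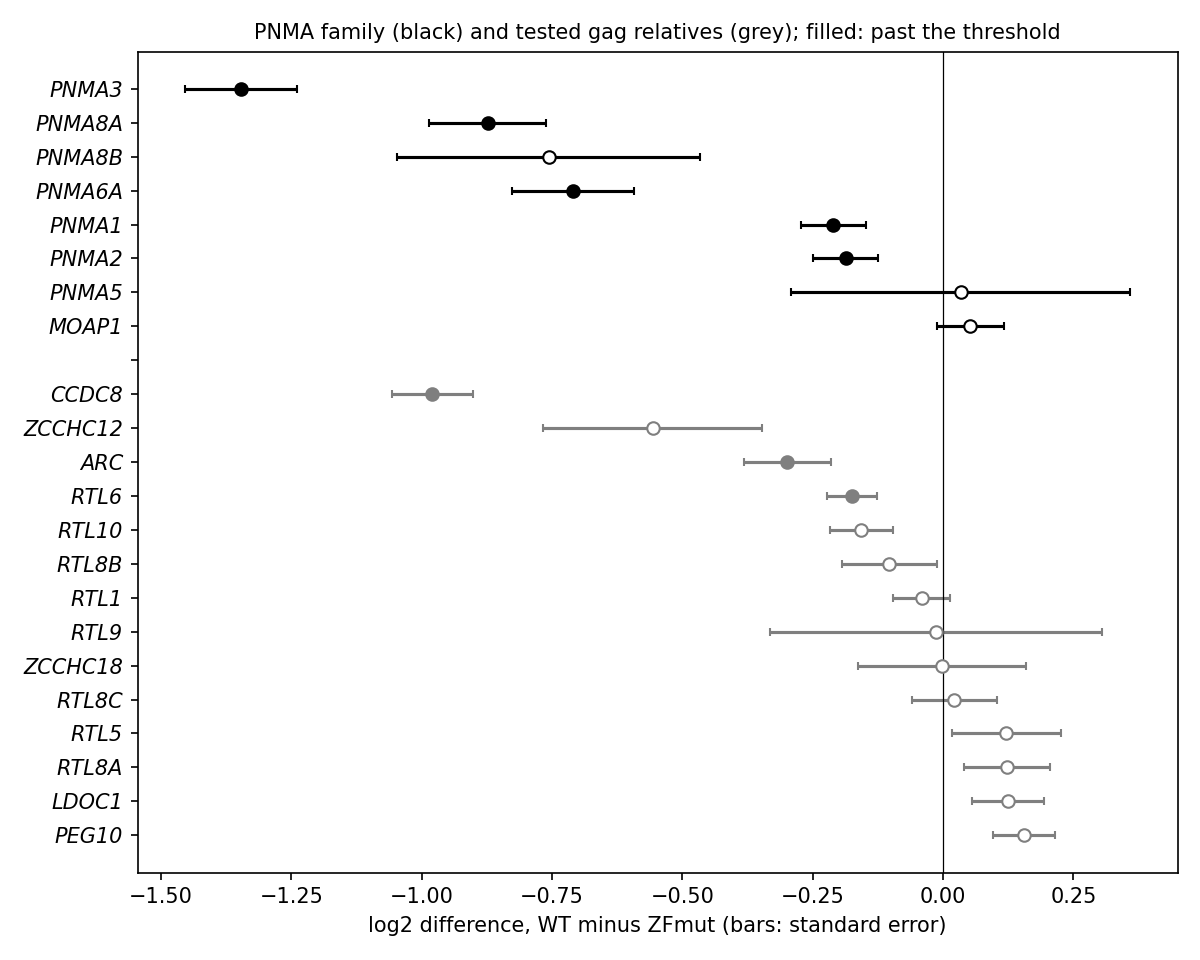
Log2 differences (WT minus ZFmut) with standard errors for the 8 family genes (black) and the 14 tested gag relatives (grey); filled points passed the adjusted p threshold of 0.05. PNMA3, PNMA8A, PNMA8B and PNMA6A lie between -1.35 and -0.71, CCDC8 lies with them, and most other relatives lie near 0.

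The wider set of genes derived from retrotransposon gag sequences held 19 more genes, of which 14 could be tested. Of these, 3 (21.4%) were lower, 0 higher and 11 did not pass, with a median of -0.03. The share lower was near the 17.2% over all tested genes. Without ZFmut replicate 3 only CCDC8 was lower, and after GC and length correction LDOC1, RTL8A and RTL8C were higher. PEG10 was higher at an unadjusted p under 0.05 in edgeR and DESeq2, and past the adjusted threshold in limma-voom. CCDC8, a PNMA relative that acts in a ubiquitin ligase complex with CUL7 and OBSL1, stood at 26.8, 31.6 and 28.2 CPM in WT and at 50.8, 59.6 and 60.5 CPM in ZFmut. It was 1.97-fold lower with WT, with no overlap (log2 difference -0.98 ± 0.08, adjusted p = 3.12e-07 by edgeR). ARC, the synaptic gene whose protein forms capsids, was lower at 11.2 ± 0.516 against 13.7 ± 1.18 CPM (-0.30 ± 0.08, adjusted p = 0.0118 by edgeR), a call lost without ZFmut replicate 3 (-0.23, adjusted p = 0.106 by edgeR).

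RTL6 was lower at 86.3 ± 2.54 against 97.4 ± 1.47 CPM (log2 difference -0.17 ± 0.05, adjusted p = 0.0116 by edgeR). Without WT replicate 3 or ZFmut replicate 3 its call was lost (-0.15 and -0.17, adjusted p = 0.110 and 0.0589 by edgeR). The imprinted placental gene PEG10 stood at 215 ± 11.3 against 193 ± 11.6 CPM. Its log2 difference of 0.16 ± 0.06 missed the threshold (adjusted p = 0.0552 by edgeR) and passed with the replicate block (0.16, adjusted p = 0.000288 by edgeR). It also passed without WT replicate 2 (0.20, adjusted p = 0.0407 by edgeR) and without ZFmut replicate 1 (0.18, adjusted p = 0.0258 by edgeR). After GC and length correction PEG10 did not pass, without or with the block. Its log2 difference ran from 0.06 to 0.20 over 17 alternatives.

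The genes beside the members were compared by taking the nearest tested protein-coding gene on each side. On chromosome X, ZNF185, a LIM-domain gene of the actin cytoskeleton that lies next to PNMA5, was 2.05-fold lower with WT, at 8.66 ± 0.643 against 17.7 ± 1.40 CPM (log2 difference -1.03 ± 0.09, adjusted p = 4.68e-07 by edgeR). MAGEA1, a cancer-testis antigen gene on the far side of PNMA6A, did not pass, at 3.93 ± 0.0856 against 4.18 ± 0.409 CPM (-0.09 ± 0.12, adjusted p = 0.620 by edgeR). In order along this stretch ZNF185 was lower, PNMA5 did not pass, PNMA3 and PNMA6A were lower and MAGEA1 did not pass.

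On chromosome 19, CCDC8 is itself the nearest tested gene beyond PNMA8A, 52829 bases away. PNMA8A and CCDC8 kept a similar ratio of reads, 0.160 ± 0.0342 in WT and 0.145 ± 0.0114 in ZFmut, and these overlapped. On the other side, PPP5D1, which overlaps PNMA8B, stood at 0.954 ± 0.199 against 0.874 ± 0.405 CPM and did not pass (0.13 ± 0.28, adjusted p = 0.768 by edgeR). CALM3, a calmodulin gene, was at 263 ± 15.4 against 275 ± 15.2 CPM and did not pass (-0.06 ± 0.06, adjusted p = 0.432 by edgeR).

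**Figure D3:**
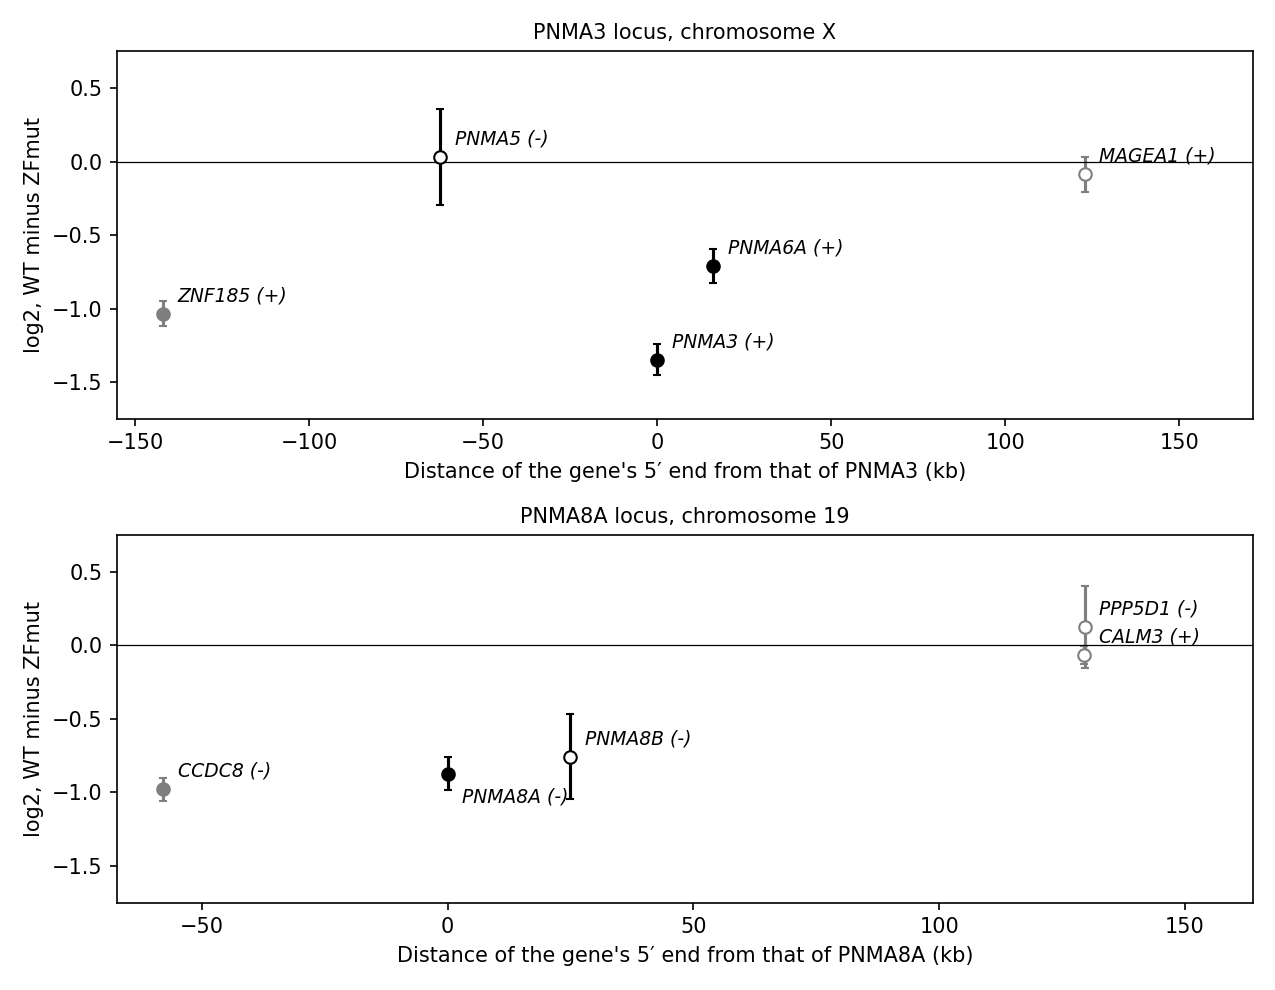
Log2 differences (WT minus ZFmut, bars are standard errors) of the members (black) and their nearest tested protein-coding genes (grey), by distance in kb of each 5′ end from that of PNMA3 (top) or PNMA8A (bottom); filled points passed the threshold and signs give the strand. ZNF185, PNMA3 and PNMA6A were lower, PNMA5 lies near 0 between ZNF185 and PNMA3, and CCDC8 and PNMA8A were lower side by side.

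The remaining neighbours showed small differences. Around PNMA1, ELMSAN1, which lies 750 bases away, was at -0.0043 ± 0.06 (adjusted p = 0.964 by edgeR) and DNAL1 at 0.03 ± 0.09 (adjusted p = 0.837 by edgeR). Around MOAP1, TMEM251, whose start lies 23 bases from that of MOAP1 on the opposite strand, was at -0.16 ± 0.11 (adjusted p = 0.267 by edgeR). ITPK1, an inositol kinase gene, was at 0.16 ± 0.07 (adjusted p = 0.0771 by edgeR) and passed after GC and length correction (0.28, adjusted p = 2.52e-05 by edgeR). ITPK1 also passed with the replicate block (0.17, adjusted p = 0.00123 by edgeR).

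Around PNMA2, 2 of the 4 neighbours passed, both with a sign opposite to that of PNMA2. Over all tested genes 18.4% were higher. BNIP3L, a mitophagy receptor gene, was higher by 0.23 ± 0.06 (adjusted p = 0.00968 by edgeR) and PPP2R2A, a phosphatase subunit gene, by 0.24 ± 0.08 (adjusted p = 0.0317 by edgeR). Corrected for GC and length they were at 0.10 and 0.06, and neither passed (adjusted p = 0.0740 and 0.373 by edgeR). Without WT replicate 1 they did not pass either, at 0.18 and 0.16 (adjusted p = 0.0536 and 0.139 by edgeR). PPP2R2A also missed the threshold without ZFmut replicate 2 (0.15, adjusted p = 0.144 by edgeR) or ZFmut replicate 3 (0.27, adjusted p = 0.0570 by edgeR). The same held after thinning to the smallest library (0.20, adjusted p = 0.0750 by edgeR). DPYSL2 was at -0.04 ± 0.05 (adjusted p = 0.608 by edgeR) and TRIM35 at -0.11 ± 0.07 (adjusted p = 0.232 by edgeR).

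Partners of MOAP1 and genes of mitochondrial apoptosis held 4 higher (20%) and 5 lower (25%) genes among 20 tested, while 11 did not pass, with a median of 0.01. Over all tested genes 18.4% were higher and 17.2% lower, so these shares were near the background. The lower count was 2 when any WT library or ZFmut replicate 2 was left out and 1 without ZFmut replicate 3. With the replicate block 7 were higher. RASSF1 did not pass, at 17.6 ± 0.394 against 17.7 ± 1.48 CPM (log2 difference -0.01 ± 0.08, adjusted p = 0.902 by edgeR). BAX, the pore former that MOAP1 binds, was lower at 75.7 ± 2.76 against 87.4 ± 10.3 CPM with overlapping groups (-0.21 ± 0.07, adjusted p = 0.0335 by edgeR). The BAX call was lost after GC and length correction (-0.07, adjusted p = 0.222 by edgeR) and when any library other than ZFmut replicate 1 was left out, with an adjusted p between 0.0548 and 0.197 in edgeR.

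BID, which links death receptors to mitochondria, was lower by 0.45 on the log2 scale, at 36.5 ± 1.32 against 50.3 ± 5.30 CPM (adjusted p = 0.000197 by edgeR). PMAIP1, which encodes the BH3-only protein NOXA, was higher by 0.41 ± 0.07 (adjusted p = 0.000322 by edgeR). APAF1, the core of the apoptosome, was higher by 0.32 ± 0.06 (adjusted p = 0.000964 by edgeR), and by 0.15 at the lowest over the alternatives. TNFRSF10A, a receptor for the death ligand TRAIL, was higher by 0.38 ± 0.08 (adjusted p = 0.00166 by edgeR).

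Of 17 tested other onconeural antigens, 2 (11.8%) were higher, 5 (29.4%) were lower and 10 did not pass, with a median of -0.07, beside 18.4% higher and 17.2% lower over all tested genes. DPYSL5, the CRMP5 antigen of growing axons, was lower at 27.5 ± 1.82 against 38.9 ± 2.83 CPM (log2 difference -0.50 ± 0.07, adjusted p = 7.73e-05 by edgeR). CDR2L, the target of Yo antibodies, was lower at 35.7 ± 2.47 against 49.1 ± 4.50 CPM (-0.46 ± 0.07, adjusted p = 0.000214 by edgeR). GAD1, the enzyme that makes GABA, was higher at 3.50 ± 0.480 against 1.83 ± 0.0439 CPM (0.95 ± 0.15, adjusted p = 0.000179 by edgeR). AMPH, the amphiphysin of synaptic vesicle recycling, was higher at 75.4 ± 1.32 against 61.6 ± 1.11 CPM (0.29 ± 0.05, adjusted p = 0.000309 by edgeR).

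The genes with the profile most like PNMA3 over the 6 libraries, by the root mean square distance of centred log2 CPM among tested protein-coding genes, were TUBB2B at 0.0179, MCAM at 0.0481 and ARHGAP45 at 0.0510. TUBB2B, a neuronal beta-tubulin, stood at 52.0 ± 2.40 against 131 ± 8.95 CPM, a log2 difference of -1.34 ± 0.06. MCAM, a cell adhesion molecule, was at 76.9 ± 2.89 against 198 ± 7.57 CPM. For PNMA1 the closest were ADGRD1 and RBM10, each at a distance of 0.0202, and CDK16 at 0.0216, with log2 differences from -0.20 to -0.18. These genes were picked as the closest among 14658, so the similar log2 differences follow from the choice. PNMA3 had only 96 to 207 reads per WT library, so the order of its closest genes is uncertain. Shared regulation was not tested.

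Gene reads per library ran from 22236214 to 102730428, and ZBTB7B itself was 1.57-fold higher in WT than in ZFmut (904 ± 44.3 against 576 ± 43.8 CPM). Of 10 markers of cerebellar granule progenitors and medulloblastoma, 7 exceeded 1 CPM in all 6 libraries, VIM and NES among them, whereas the defining gene ATOH1 had 8 reads in all. Their summed level was 868 to 905 CPM in WT and 920 to 953 CPM in ZFmut. Of 10 neuronal markers 6 exceeded 1 CPM in all libraries, with DCX at 0 reads and a summed level of 214 to 227 CPM in WT and 231 to 266 CPM in ZFmut. The astrocyte and oligodendrocyte list exceeded 1 CPM with 5 of 10 genes, with SOX10 at 0, and summed to 65.3 to 69.6 against 45.5 to 49.3 CPM. The endothelial and fibroblast list also did so with 5 of 10, at 2443 to 3296 against 4180 to 4826 CPM, and the leukocyte list with 1 of 10, at 6.11 to 7.27 against 7.94 to 8.28 CPM. The 5 sums did not overlap between the groups, but single genes carried some of them and other members of the same lists had the opposite sign. COL1A1 made up 2345 to 3192 CPM of the endothelial and fibroblast sum in WT and 4067 to 4711 CPM in ZFmut, and it was lower with WT, whereas COL3A1 (34.9 against 27.6 CPM on average) and LUM (3.84 against 1.48 CPM) were higher. NEFL made up 182 to 196 CPM of the neuronal sum in WT and 211 to 245 CPM in ZFmut and was lower, whereas MAP2 and SYT1 were higher (log2 differences 1.30 and 0.56). SLC1A3, which led the astrocyte and oligodendrocyte sum, was higher (0.64) and OLIG2 lower (-0.64). The part of these markers in the PNMA differences was not tested.

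**Figure D4:**
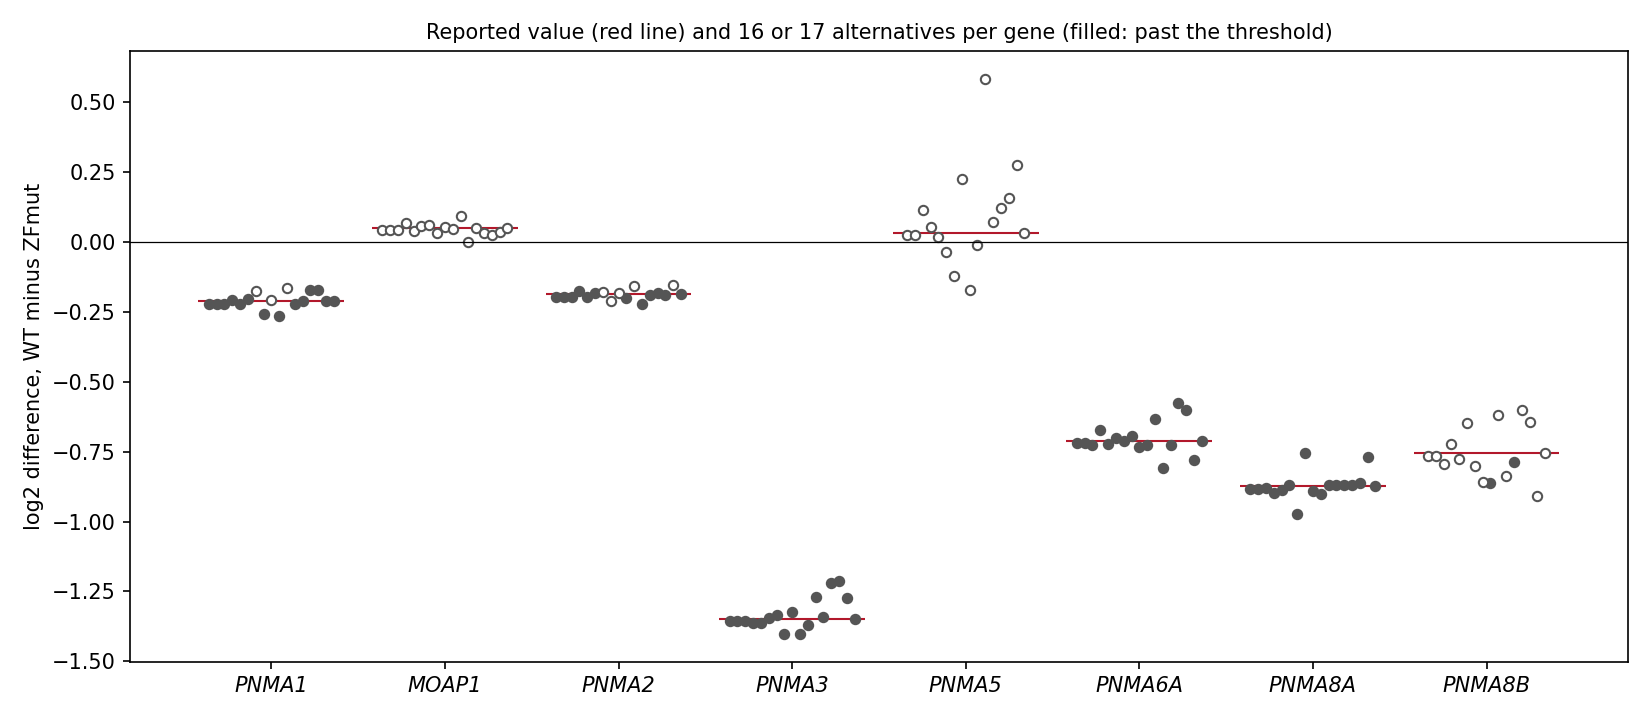
Log2 difference (WT minus ZFmut) of each member as reported (red line) and under 16 or 17 alternative analyses (points; filled where the adjusted p was under 0.05). PNMA3, PNMA6A and PNMA8A stay filled and below -0.57 throughout, PNMA1 and PNMA2 lie near -0.2 with some open points, and PNMA5 lies on each side of 0.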

How the data were processed

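The authors deposited 1 file per library with raw counts for Ensembl gene identifiers. The submitters' processing notes list TopHat2 2.0.9, cutadapt, HTSeq, DESeq2 and GRCh38 without roles; for the annotation and the strand setting nothing is stated, and the library kit does not mark strand. Summary lines without a gene did not enter library sizes or tests: 5.04 to 6.56% of the total lay outside genes, 7.71 to 8.08% fitted more than 1 gene and 16.1 to 19.4% aligned to several places. Symbols came from GENCODE release 29, matched by identifier without its version (94.1% of 60554).

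WT and ZFmut (n = 3 each, from the titles) were compared in R 4.3.3 with edgeR 4.0.16 (TMM factors, filterByExpr, two-sided quasi-likelihood test, Benjamini-Hochberg adjustment over 18683 genes, threshold 0.05). The test was also run on simulated counts with known changes. These were planted only in genes with a mean above 5 CPM, with the same spread for every gene. PNMA5 and PNMA8B lie below that level and real genes differ in spread, so no result here rests on that run. CPM values use TMM library sizes; standard errors are the log2 difference divided by the root of the F statistic. Nothing says that replicates are separate cultures, so p-values measure only the spread between these samples. No pair of replicates agreed within sampling noise (chi-square per degree of freedom 3.42 to 8.00).

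Alternatives were median-of-ratios and upper-quartile factors, DESeq2 1.42.0, limma-voom (limma 3.58.1), no filter, 5 CPM in 3 libraries, each library left out, the replicate block, loess offsets for GC and exon length (span 0.5) without and with that block, thinning to the smallest library and leaving out ZBTB7B. The members, the lists and the rules were chosen with earlier results of these data known. Named genes are all members, ZBTB7B, the nearest tested protein-coding neighbours, RASSF1, BAX, PEG10, up to 4 called genes per list with the smallest p, and the 3 closest profiles of 2 members. TGACGTCA was added after the promoters were seen. No protein sequence was used here, and the promoter table matched 6 of the 8 members, not PNMA1 and PNMA2.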

Additional observations from a re-analysis of the deposited data

How the results depend on the processing

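No alternative reversed a called member, and PNMA3, PNMA6A and PNMA8A kept their calls in all 17. On leaving out 1 library in turn, 3 to 6 members were lower, PNMA1 ranged from -0.26 to -0.16, PNMA2 from -0.22 to -0.16 and PNMA8B from -0.86 to -0.62. After thinning, which leaves fewer reads, PNMA2 was at -0.15 and missed the threshold. PNMA5 and PNMA8B could not be fitted under the filter of 5 CPM, and their low read numbers limit what can be said of them.

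Leaving out 1 library gave 0 to 1 higher and 1 to 4 lower gag relatives with medians from -0.12 to -0.0030, 1 to 6 lower apoptosis genes, and medians of other onconeural antigens from -0.14 to -0.064. Among the relatives, 5 were lower with median-of-ratios or upper-quartile factors, 1 was higher with limma-voom and 3 were higher after GC and length correction, without or with the replicate block. Of the onconeural antigens, 1 was higher and 3 lower under the filter of 5 CPM, which tests fewer genes. Their median was -0.12 after GC and length correction and -0.13 with the block added. Where no test or construction is named, the cause was not tested.

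Libraries of the same number share only that number: their deviations correlated at 0.164, 0.0770 and 0.0635 over genes, each library best with its own number, a hint from the data and not from the design. With the replicate block 6 members were lower, PNMA8B passing at -0.79, and 3 gag relatives (PEG10, LDOC1 and RTL8A) and 7 apoptosis genes were higher.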

Other observations

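Further PNMA genes and RTL relatives below the filter on low counts belong to no comparison. PNMA6E had 3, 13 and 8 reads in WT replicates 1 to 3 and 6, 6 and 37 reads in ZFmut replicates 1 to 3. PNMA6F had 2 reads and PNMA8C 7 reads over all libraries, and RTL3 and RTL4 had 0.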
